A study of Arabidopsis thaliana with 6 samples.

Results

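The iron deficiency regulators are 10 Arabidopsis thaliana genes, chosen by their locus identifiers from the 32744 genes of the deposited count tables: FIT (AT2G28160), bHLH38 (AT3G56970), bHLH39 (AT3G56980), bHLH100 (AT2G41240), bHLH101 (AT5G04150), PYE (AT3G47640), BTS (AT3G18290), ILR3 (AT5G54680), MYB72 (AT1G56160) and IMA1 (AT1G47400). They were picked with their difference between the genotypes already known, so their values in that comparison are given as a description, with no p-value. The series measured total RNA of whole seedlings at Boyes growth stage 1.04, grown on media without treatment. It held 3 wild-type libraries and 3 libraries whose genotype label reads double mutant AT4G15640-AT3G21465. The series title calls the products of both genes uncharacterised mitochondrial proteins. The mutant titles carry a single line name, and the alleles, the media and the plant accession are not stated there.

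Arabidopsis takes up iron by acidifying the soil, reducing ferric iron at the root surface and importing ferrous iron. When iron is short, bHLH factors of subgroup IVc, among them ILR3, switch on the subgroup Ib factors bHLH38, bHLH39, bHLH100 and bHLH101 and the regulators PYE and BTS. The Ib proteins pair with FIT, a root epidermal factor, to activate the uptake genes. BTS is an E3 ubiquitin ligase with iron-binding hemerythrin domains that targets IVc factors for degradation, PYE is a bHLH repressor of iron redistribution and storage genes, MYB72 is a root factor of the coumarin and nicotianamine branches, and IMA1 is a short mobile peptide that promotes the response.

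Library totals lay between 53193772 and 78671470 counted alignments. The share on nuclear genes was 41.0% to 43.3% in wild type and 46.7% to 51.3% in the labelled mutant libraries. Of the targeted genes, AT3G21465 fell from 7.92 ± 0.50 to 4.61 ± 0.255 CPM (counts scaled to an adjusted library total of 1e6, SD, n = 3 per group; log2 fold change -0.78 ± 0.08 SE, adjusted p = 8.95e-05, edgeR). AT4G15640 stood at 11.95 ± 1.07 and 13.4 ± 0.725 CPM, a log2 fold change of 0.16 ± 0.08 that did not pass the test (edgeR adjusted p = 0.121). The libraries are therefore named by their label. Without wild-type replicate 2 AT4G15640 was called higher (0.24, adjusted p = 0.0338). All 13 root markers and all 7 shoot markers were detected, as a whole seedling would hold, none of them at 0. The summed root markers were 64.8 to 87.1 CPM in wild type and 56.8 to 60.01 CPM in the labelled mutant libraries, and the summed shoot markers 5110 to 6356 against 2545 to 2888 CPM. Most of the shoot sum is RBCS1A, a Rubisco small subunit, at 4732 and 2063 CPM on average, and the single markers did not share a direction. RBCS1A and LHCB1.1 each have near-identical sequence in other genes, whose reads can be counted at them, so their levels are not fully separate from those genes. Log2 fold changes of the 7 shoot markers ran from -1.20 for RBCS1A to 0.94 for GLK2, with a median of 0.13, and those of the 13 root markers from -2.29 to 1.02, with a median of -0.40. In such bulk RNA, fewer cells of a type and less RNA per cell cannot be told apart. The part of organ makeup in the differences below was not tested.

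All 10 regulators passed the filter on low counts, MYB72 through the labelled mutant group, where it was higher. Of the 10, 8 stood higher in the labelled mutant libraries at an adjusted p under 0.05 in the edgeR fit over 21805 genes, and none stood lower. Those same thresholds called 52.4% of all tested genes, 26.3% as higher and 26.0% as lower. In 8 of the 10 all 3 labelled mutant libraries lay above all 3 wild-type libraries, as in 32.1% of all tested genes; 61.8% did not overlap in either direction. The median log2 difference was 2.18 over the regulators and 0.01 over all tested genes. Because the regulators were chosen with these results known, the counts describe the choice and nothing is read from them. The remaining 2, FIT and ILR3, overlapped between the genotypes in CPM.

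**Figure D1:**
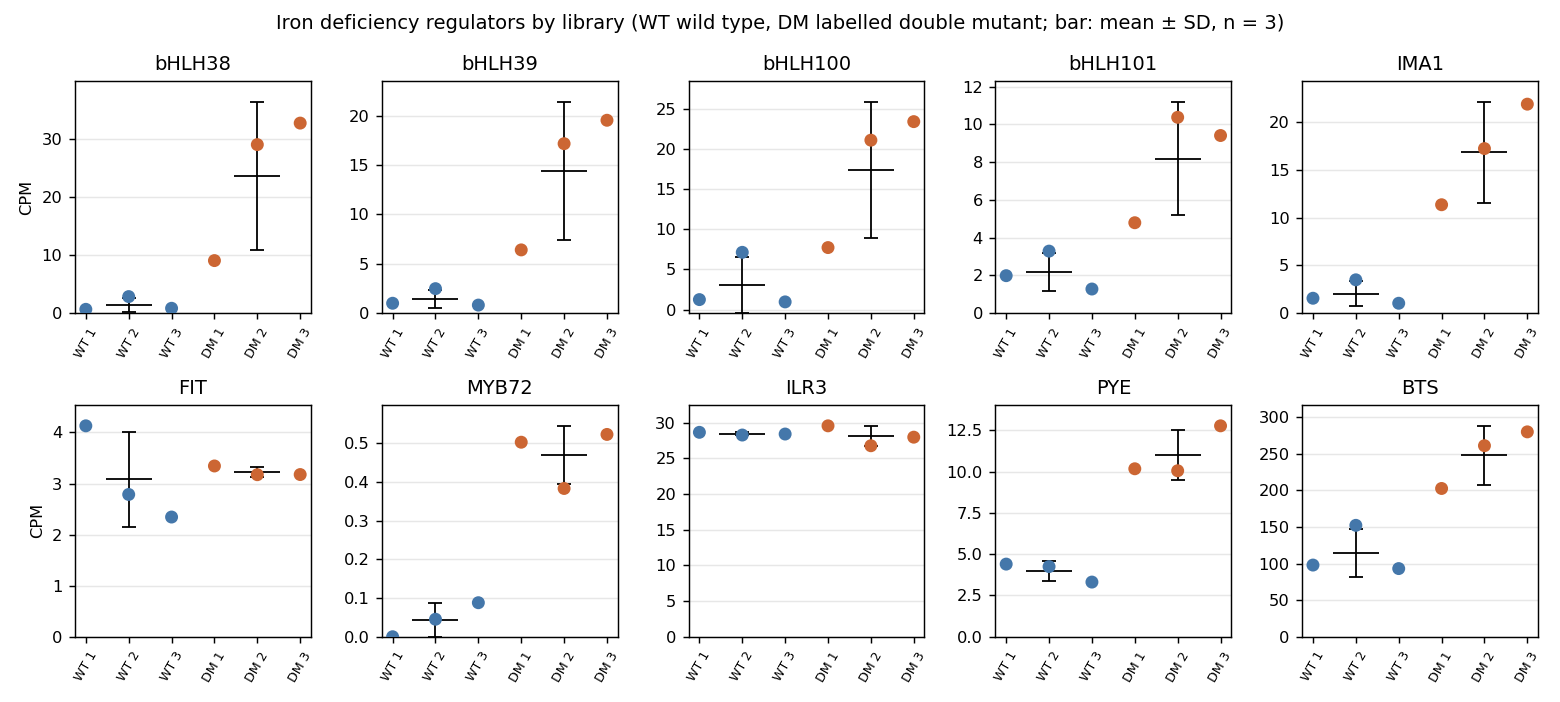
Level of each regulator in the 6 libraries, in CPM on a separate linear axis per gene, with the mean and SD of each genotype (WT, wild type; DM, labelled double mutant; n = 3 each). The 4 Ib bHLH genes and IMA1 share a high wild-type replicate 2 and a low labelled mutant replicate 1, while FIT and ILR3 overlap between the genotypes in CPM.

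The subgroup Ib genes bHLH38 and bHLH39 are tandem neighbours on the minus strand of chromosome 3 (TAIR10), at 21084035 to 21085245 and 21086390 to 21087710, separated by 1144 bases. Their coding sequences were 83.1% identical in a global alignment, the closest of the 6 pairs among the 4 Ib genes, with a longest identical run of 34 bases. bHLH100 lies on chromosome 2 and shared 70.0% and 69.1% with the tandem pair, whereas bHLH101 on chromosome 5 shared 52.8% to 55.2% with the others. None of the 4 shared a 50-base stretch or a 95% identical match with another gene, which is the measure used here for reads that could be counted at both.

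The 250 bases before the annotated transcript starts are shown for the tandem pair, for bHLH100 and for BTS, because they include all 3 regulator windows with a G-box (CACGTG) and that of the tandem partner of bHLH38. Capitals mark E-boxes (CANNTG), the letters that bHLH factors are known to recognise, of which the G-box is one form. Both motifs read as themselves on the opposite strand, so that one search covers both strands, and every G-box is also an E-box. The sequences are from the RefSeq TAIR10.1 genome, 5′ to 3′ in the direction of transcription.
bHLH38, chr3:21085246-21085495, minus strand: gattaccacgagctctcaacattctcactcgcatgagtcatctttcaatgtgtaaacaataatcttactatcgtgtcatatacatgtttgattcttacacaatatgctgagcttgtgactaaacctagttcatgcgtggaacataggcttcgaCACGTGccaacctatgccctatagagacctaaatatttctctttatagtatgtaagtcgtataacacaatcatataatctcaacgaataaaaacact
bHLH39, chr3:21087711-21087960, minus strand: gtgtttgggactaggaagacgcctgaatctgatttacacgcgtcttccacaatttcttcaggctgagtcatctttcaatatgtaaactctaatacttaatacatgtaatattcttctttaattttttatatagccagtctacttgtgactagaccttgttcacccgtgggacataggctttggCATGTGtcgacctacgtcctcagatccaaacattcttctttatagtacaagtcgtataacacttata
bHLH100, chr2:17199455-17199704, minus strand: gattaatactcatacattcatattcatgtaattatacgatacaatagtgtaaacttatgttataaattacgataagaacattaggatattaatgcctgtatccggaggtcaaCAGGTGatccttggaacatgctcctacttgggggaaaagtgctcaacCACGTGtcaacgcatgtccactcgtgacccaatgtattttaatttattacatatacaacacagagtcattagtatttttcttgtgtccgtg
BTS, chr3:6273716-6273965, plus strand: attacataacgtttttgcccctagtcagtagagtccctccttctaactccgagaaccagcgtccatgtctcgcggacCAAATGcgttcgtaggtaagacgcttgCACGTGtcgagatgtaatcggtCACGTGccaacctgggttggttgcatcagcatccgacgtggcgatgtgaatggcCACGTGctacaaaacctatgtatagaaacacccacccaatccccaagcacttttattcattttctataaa

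The bHLH38 window held 1 G-box, with its first base at -97 from the transcript start. In the alignment of the tandem windows, 56.9% identical over 281 columns, those 6 letters lined up with CATGTG at -67 of bHLH39, an E-box that is not a G-box. bHLH100 had a G-box at -91 and another E-box at -138, and bHLH101 had neither motif. The BTS window held 3 G-boxes, at -146, -124 and -70. Of the 32546 windows of nuclear genes, 28 (0.086%) held at least 3. Of the regulators, 3 of 10 windows held a G-box and 7 of 10 an E-box, against 5.9% and 55.7% of all windows. IMA1 had E-boxes at -232 and -60, FIT had 1 at -249 and ILR3 had 1 at -197, and the windows of PYE and MYB72 held none. A match describes these letters only.

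**Figure D2:**
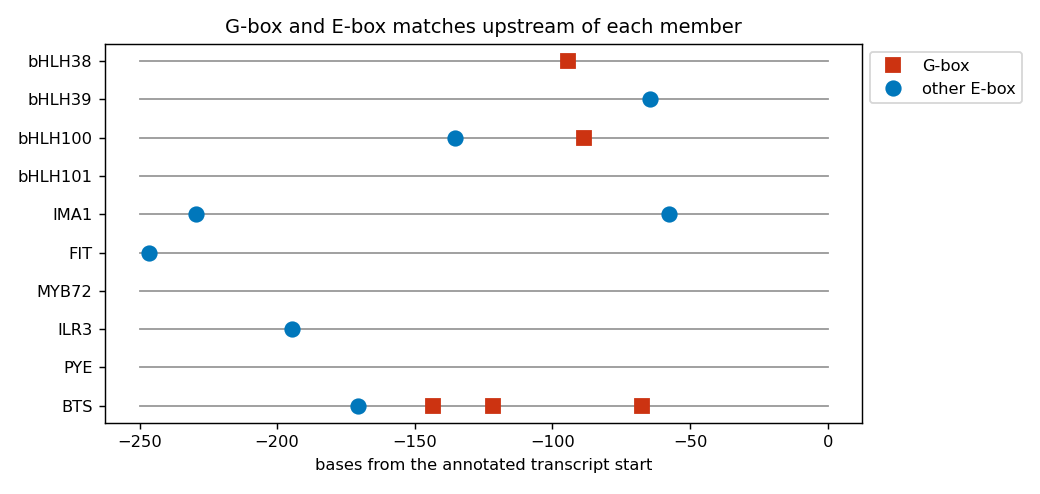
Position of each G-box (CACGTG) and each other E-box (CANNTG) in the 250 bases upstream of the 10 regulators, in bases from the annotated transcript start. BTS carries 3 G-boxes, bHLH38 and bHLH100 carry 1 each, and bHLH101, MYB72 and PYE carry no match.

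bHLH38 measured 0.640, 2.83 and 0.820 CPM in wild-type replicates 1, 2 and 3 and 9.03, 29.0 and 32.7 CPM in the labelled mutant replicates. The genotypes did not overlap, but each held 1 library apart: wild-type replicate 2 was high and labelled mutant replicate 1 was low. The means were 1.43 ± 1.22 and 23.6 ± 12.7 CPM (SD, n = 3), and the fitted log2 fold change of 3.99 ± 0.60 (SE) was the largest among the regulators. Without wild-type replicate 2 it was 4.98.

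bHLH39 had the same shape, with 0.991, 2.47 and 0.806 CPM in wild type and 6.39, 17.2 and 19.5 CPM in the labelled mutant libraries. Its means of 1.42 ± 0.912 and 14.4 ± 6.996 CPM gave a log2 fold change of 3.31 ± 0.50, and 4.01 without wild-type replicate 2. Of the other tested genes within 5 kilobases of the pair, PIP5K4, a phosphatidylinositol phosphate kinase, rose from 3.82 to 6.28 CPM (log2 fold change 0.71 ± 0.09, edgeR adjusted p = 0.000227), and SIP2;1 (0.11 ± 0.08, adjusted p = 0.303) and AT3G57000 (0.02 ± 0.08, adjusted p = 0.817) did not pass. EDA7 was called lower (-0.23 ± 0.08, adjusted p = 0.0420), a call lost without wild-type replicate 2 (-0.16, adjusted p = 0.130) or 3 (-0.25, 0.0731) and without labelled mutant replicate 1 (-0.24, 0.0850), 2 (-0.26, 0.0644) or 3 (-0.21, 0.126). PIP5K4 lies on the opposite strand and overlaps bHLH38 by 386 bases, and the reads were counted by strand.

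bHLH100, at 1.24, 7.12 and 0.952 CPM in wild type and 7.72, 21.1 and 23.4 CPM in the labelled mutant libraries, came closest to overlapping. Wild-type replicate 2 lay just under labelled mutant replicate 1 and 7.48 times above the lowest wild-type library. The means were 3.11 ± 3.48 and 17.4 ± 8.47 CPM and the log2 fold change 2.45 ± 0.67. It was 4.01 without wild-type replicate 2 and 2.00 without wild-type replicate 3, so that the size of its difference rested on single libraries more than that of any other regulator.

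bHLH101 varied least of the 4, from 1.27 to 3.28 CPM in wild type (1.98, 3.28 and 1.27) and from 4.79 to 10.4 CPM in the labelled mutant libraries (4.79, 10.4 and 9.42). The genotypes did not overlap, and the log2 fold change was 1.90 ± 0.36. GLU1, a ferredoxin-dependent glutamate synthase on the opposite strand whose end overlaps bHLH101 by 79 bases, fell from 799 to 428 CPM (-0.90 ± 0.11, edgeR adjusted p = 0.000158).

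On the scale per length, in TPM (counts per exon length, scaled to a total of 1e6 over nuclear genes), the 4 Ib transcripts summed to 12.7, 42.3 and 10.8 in wild-type replicates 1 to 3 and to 77.9, 235 and 256 in the labelled mutant replicates. Their makeup differed between the genotypes as well. bHLH38 supplied 13.7%, 18.9% and 22.2% of the Ib sum in wild type and 33.8%, 39.0% and 40.2% in the labelled mutant libraries. bHLH101 supplied 42.5%, 21.9% and 34.4% against 17.9%, 13.95% and 11.6%. The leading Ib transcript was thus bHLH101 in wild-type replicates 1 and 3, bHLH100 in wild-type replicate 2, at 44.5% of the sum, and bHLH38 in all 3 labelled mutant libraries. bHLH39 held a narrower share, from 14.7% to 19.4% in wild type and from 20.5% to 21.4% in the labelled mutant libraries.

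**Figure D3:**
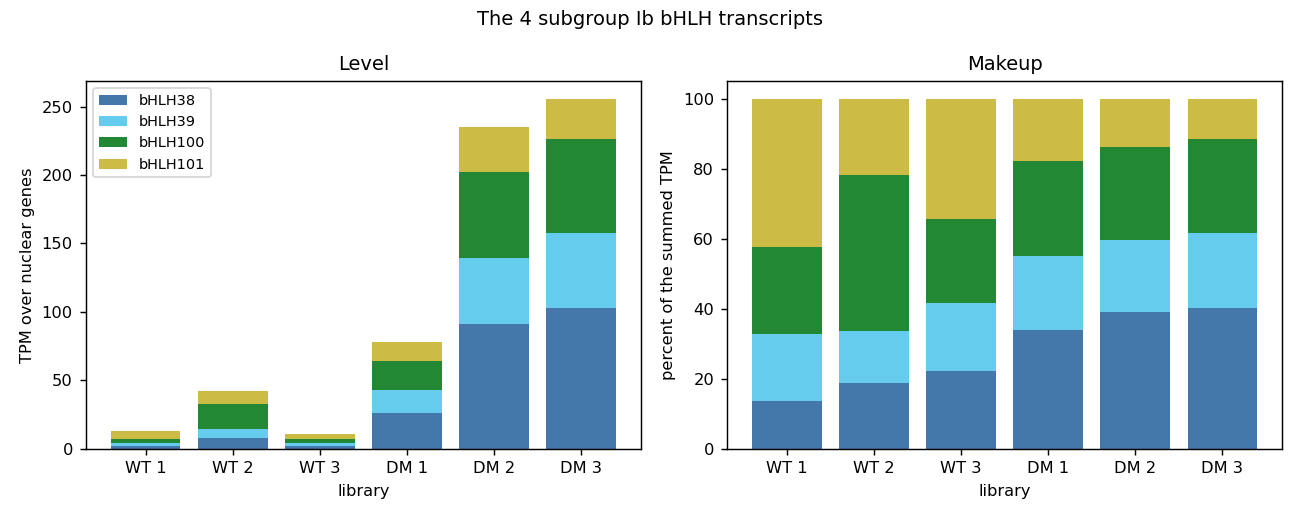
Summed level of the 4 subgroup Ib bHLH transcripts per library in TPM over nuclear genes (left) and the percent each supplies (right), as stacked bars. The sum is 10.8 to 42.3 TPM in wild type and 77.9 to 256 TPM in the labelled mutant libraries, where bHLH38 supplies the largest share.

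IMA1 (chromosome 1, 17385707 to 17386485, plus strand) measured 1.55, 3.48 and 1.03 CPM in wild type and 11.3, 17.2 and 21.9 CPM in the labelled mutant libraries. The genotypes did not overlap, and the high and low libraries were those of the Ib genes. The means of 2.02 ± 1.29 and 16.8 ± 5.27 CPM gave a log2 fold change of 3.04 ± 0.39, and 3.74 without wild-type replicate 2.

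IMA1 was the only regulator with a near-identical partner, AT1G47395, which lies 1876 bases upstream on the same strand. The coding sequences of both are shown because reads from one can be counted at the other. They are from RefSeq TAIR10.1, on the plus strand, and capitals mark the bases that differ.
IMA1, chr1:17385818-17385970: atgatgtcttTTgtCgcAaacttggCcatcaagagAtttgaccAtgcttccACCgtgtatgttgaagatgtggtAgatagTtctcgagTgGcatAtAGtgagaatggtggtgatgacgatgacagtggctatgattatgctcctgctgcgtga
AT1G47395, chr1:17383117-17383269: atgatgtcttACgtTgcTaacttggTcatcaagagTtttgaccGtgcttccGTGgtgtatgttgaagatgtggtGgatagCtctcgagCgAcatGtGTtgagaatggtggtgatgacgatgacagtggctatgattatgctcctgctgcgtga
The 153 bases align without a gap, 136 of them identical (88.9%), and the last part is an identical run of 55 bases. The counting kept every alignment of a read with several, so that the levels of the pair are not fully separate. AT1G47395 rose from 2.66 ± 1.21 to 30.4 ± 9.27 CPM (log2 fold change 3.51 ± 0.34, edgeR adjusted p = 5.02e-05). AT2G30766, an uncharacterized short protein gene in the reference whose coding sequence was 51.9% identical to that of IMA1 with no identical run over 5 bases, rose from 9.83 ± 3.23 to 37.3 ± 6.26 CPM (1.92 ± 0.22, adjusted p = 0.000143). Downstream of IMA1 on the same strand, by 2503 bases, the long noncoding RNA AT1G07367 rose from 0.322 to 4.09 CPM (3.67 ± 0.64), and by 4.28 without wild-type replicate 2. AT1G07367 passed the filter on low counts through the labelled mutant group, where it was higher, so no p-value is given. MIR5664, between IMA1 and AT1G07367, had too few counts to be tested.

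FIT (chromosome 2, 12004658 to 12006276, plus strand) measured 4.13, 2.79 and 2.34 CPM in wild type and 3.34, 3.17 and 3.18 CPM in the labelled mutant libraries. The labelled mutant values fell inside the wild-type range. The means were 3.09 ± 0.930 and 3.23 ± 0.0979 CPM and the log2 fold change 0.08 ± 0.19. Leaving out wild-type replicate 1 moved it to 0.33, and leaving out wild-type replicate 3 turned it to -0.086.

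ILR3 (chromosome 5, plus strand) was the steadiest regulator, at 28.6, 28.3 and 28.4 CPM in wild type and 29.6, 26.8 and 28.0 CPM in the labelled mutant libraries. Its log2 fold change was -0.02 ± 0.06, with the wild-type libraries inside the labelled mutant range. In TPM, the per-length scale over nuclear genes, ILR3 was 64.1, 65.3 and 67.9 in wild type and 70.5, 69.1 and 72.0 in the labelled mutant libraries, and on that scale the genotypes did not overlap. It overlaps AT5G08235, with 0 counts in all libraries, and the end of GAUT12, both on the opposite strand.

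PYE (chromosome 3, plus strand) measured 4.40, 4.25 and 3.31 CPM in wild type and 10.2, 10.1 and 12.8 CPM in the labelled mutant libraries, with a log2 fold change of 1.47 ± 0.13. The genotypes were far apart for their spread, and PYE did not share the pattern of the Ib genes within each genotype. AT3G47650, which starts 29 bases after PYE ends on the same strand, fell from 79.3 to 36.5 CPM (-1.12 ± 0.07, edgeR adjusted p = 6.95e-06).

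BTS (chromosome 3, plus strand) was the most abundant regulator, at 98.0, 152 and 93.2 CPM in wild type and 203, 261 and 280 CPM in the labelled mutant libraries. The genotypes did not overlap, and again wild-type replicate 2 was the highest and labelled mutant replicate 1 the lowest of its genotype. The log2 fold change was 1.11 ± 0.19.

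MYB72 (chromosome 1, plus strand) was near the limit of detection in wild type, with 0, 3 and 6 counts against 41, 31 and 37 in the labelled mutant libraries. These are 0, 0.0452 and 0.0879 CPM against 0.502, 0.383 and 0.522 CPM. The genotypes did not overlap, and the fitted log2 fold change of 3.22 ± 0.49 rested on 9 wild-type counts; without wild-type replicate 3 it was 4.08. AT1G56165, on the opposite strand across 829 bases, rose from 0.321 to 0.618 CPM (0.95 ± 0.26, edgeR adjusted p = 0.0128).

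Ordered by mean TPM, the regulators fell into 3 ranges in wild type. BTS at 77.9 TPM and ILR3 at 65.8 TPM overlapped each other and lay above all others. PYE (8.77), bHLH100 (8.20), IMA1 (7.90), FIT (6.80), bHLH101 (6.13), bHLH38 (4.05) and bHLH39 (3.57 TPM) formed a chain in which each gene overlapped the next, and MYB72 at 0.134 TPM lay below. In the labelled mutant libraries BTS stood alone at 184 TPM. bHLH38 (73.5), IMA1 (72.3) and ILR3 (70.5 TPM) followed with overlapping ranges. Below them, bHLH100 (50.7), bHLH39 (39.8), PYE (26.4) and bHLH101 (25.4 TPM) overlapped as neighbours, and FIT at 7.78 and MYB72 at 1.51 TPM each stood apart. FIT thus moved from the middle of the chain in wild type to below all 4 of its Ib partners in the labelled mutant libraries.

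Within the genotypes, the libraries ranked alike for several regulators. For 6 of the 10 (the 4 Ib genes, IMA1 and BTS), wild-type replicate 2 was the highest wild-type library and labelled mutant replicate 1 the lowest labelled mutant library. The same held for 3148 of all 21805 tested genes (14.4%). On the log2 scale with a prior count of 2, bHLH38 deviated from its genotype mean by 1.28 in wild-type replicate 2 and by -1.18 in labelled mutant replicate 1, and BTS by 0.45 and -0.28. FIT-dependent uptake genes had another pattern in the labelled mutant group. All 13 of them were highest in labelled mutant replicate 1, where 36.3% of all tested genes were highest, and 7 of the 13 were highest in wild-type replicate 2 (33.8% of all). FIT itself was also highest in labelled mutant replicate 1, by a deviation of 0.05. Of 11 redistribution genes, 7 were lowest in labelled mutant replicate 1 (36.8% of all tested genes). Labelled mutant replicate 1 therefore held the least Ib transcript and the most uptake transcript of its group. Its summed root markers were 56.8 CPM beside 60.01 and 57.6 CPM in replicates 2 and 3, and its summed shoot markers 2731 CPM beside 2545 and 2888 CPM. The root sum hides opposite moves of single markers. LRX1 was at 1.74 CPM in labelled mutant replicate 1 beside 1.05 and 0.861 CPM, and PLT1 at 1.92 CPM beside 2.78 and 2.85 CPM. The part of root makeup in these patterns was not tested.

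**Figure D4:**
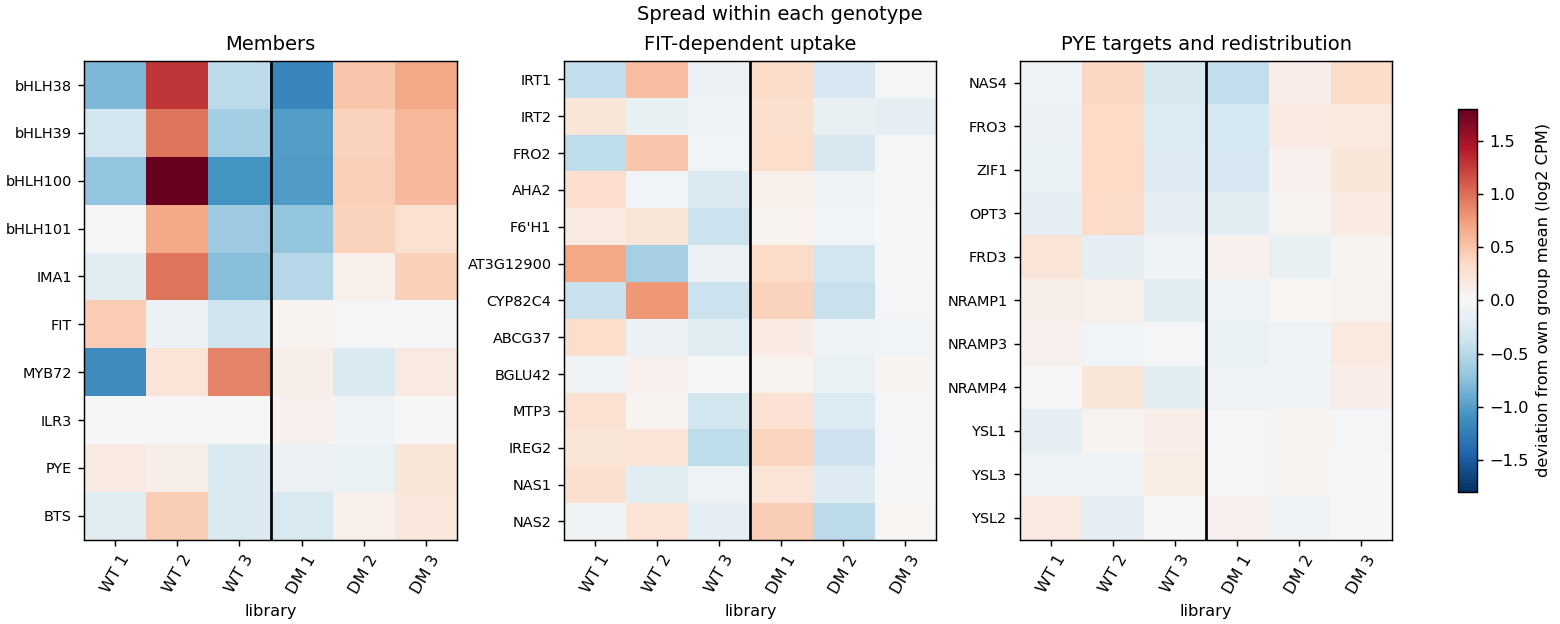
Deviation of each gene from the mean of its own genotype in log2 CPM, by library, for the regulators, the FIT-dependent uptake genes and the PYE targets and redistribution genes (red above, blue below the genotype mean). The Ib genes and IMA1 are high in wild-type replicate 2 and low in labelled mutant replicate 1, while IRT1, FRO2 and CYP82C4 are high in both.

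The genes whose profile over the 6 libraries was most like the mean of the 4 Ib genes were ranked by the root mean square difference of centred log2 CPM, among 18402 tested genes with at least 1 CPM on average. IMA1 ranked first, with a difference of 0.29, followed by AT1G47395 (0.45), the amino acid exporter UMAMIT14 (0.50), AT1G07367 (0.51) and the beta-glucosidase DIN2 (0.52). Around IMA1 the order was AT1G47395 (0.26), bHLH39 (0.28), DIN2 (0.31), AT5G53820 (0.39), a late embryogenesis abundant family gene, and the noncoding RNA AT1G67105 (0.41). Reads from AT1G47395 can be counted at IMA1 and the reverse, so the likeness of that pair is not a separate measure. The 1 CPM average was taken over all 6 libraries. In wild type and labelled mutant, DIN2 averaged 0.548 and 4.03 CPM, AT1G07367 0.322 and 4.09, and AT5G53820 0.277 and 2.25. These passed only through the labelled mutant group, where they were higher. The profiles also hold the genotype difference that was known when the regulators were chosen, so the ranking partly restates that choice. UMAMIT14 went from 0.537, 2.08 and 0.850 CPM to 7.09, 7.51 and 8.88 CPM, with the same high wild-type library as the Ib genes. Its log2 fold change was 2.71 ± 0.34, and 3.45 without wild-type replicate 2.

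Other regulators of the pathway, a list of 18 genes, split in direction. Of the 15 tested, 7 rose and 3 fell by edgeR, with a median log2 fold change of 0.05. Over all tested genes the median was 0.01, and 26.3% were called higher and 26.0% lower. This list and the uptake, redistribution and storage lists that follow were chosen with earlier results of these data known. Their counts describe the choice, and nothing is read from them. Among the IVc factors that act with ILR3, bHLH34 rose from 2.02 to 3.93 CPM (0.96 ± 0.14, adjusted p = 0.000435), bHLH115 rose by 0.30 ± 0.07 (adjusted p = 0.00648) and bHLH104 by 0.25 ± 0.07 (adjusted p = 0.0208). bHLH121, their partner upstream of the Ib genes, fell from 20.8 to 14.9 CPM (-0.48 ± 0.08, adjusted p = 0.000932). The close MYB72 relative MYB10 rose from 0.493 to 1.89 CPM (1.93 ± 0.15, adjusted p = 1.96e-05). Of 2 genes that the reference describes as zinc ion binding with a hemerythrin-type domain, AT1G18910 rose (0.51 ± 0.10, adjusted p = 0.00345) and AT1G74770 did not pass (-0.05 ± 0.18, adjusted p = 0.839). GRF11, a 14-3-3 protein, fell by 0.72 on the log2 scale (adjusted p = 0.00140), and EIL1, a transcription factor of ethylene signalling, fell by 0.21 (adjusted p = 0.0257). Its homolog EIN3 (0.05 ± 0.06, adjusted p = 0.504), the zinc finger factor ZAT12 (0.02 ± 0.15, adjusted p = 0.935), bHLH11 (-0.45 ± 0.28, adjusted p = 0.203) and NAI1 (-0.18 ± 0.15, adjusted p = 0.341) did not pass. EIL1 and EIN3 share near-identical sequence, and reads with several alignments were counted at each, so their levels are not fully separate. The subgroup IVa genes AT2G22750, AT2G22760 and AT4G37850 had too few counts to be tested. The call of bHLH104 was lost without wild-type replicate 2 (0.18, adjusted p = 0.0604) and without labelled mutant replicate 1 (0.23, 0.0652) or 3 (0.23, 0.0730). That of EIL1 was lost without wild-type replicate 1 (-0.20, adjusted p = 0.0540) or 3 (-0.19, 0.0770) and without labelled mutant replicate 1 (-0.20, 0.0721) or 3 (-0.18, 0.102). NAI1 was called lower without wild-type replicate 2 (-0.34, adjusted p = 0.0294).

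Of 13 FIT-dependent uptake genes, 6 rose and 1 fell by edgeR, a share of calls near the 52.4% of all tested genes, with a median log2 fold change of 0.59. AT3G12900, a 2-oxoglutarate and Fe(II)-dependent oxygenase gene, rose from 0.140 ± 0.0784 to 10.1 ± 2.43 CPM (6.24 ± 0.31), with 11, 5 and 8 counts in wild type. Like MYB72, AT3G12900 passed the filter on low counts through the labelled mutant group, where it was higher. It is counted among the 6, but its difference is given as a description with no p-value. CYP82C4, a cytochrome P450 of coumarin synthesis, rose from 2.30 to 28.6 CPM (3.61 ± 0.32, adjusted p = 3.33e-05). CYP82C4 has near-identical sequence in AT4G31950 and AT4G31970. IRT1, the ferrous iron importer, rose from 9.78 ± 3.59 to 30.0 ± 6.62 CPM (1.61 ± 0.24, adjusted p = 0.000645), and FRO2, the ferric chelate reductase, from 6.52 ± 2.20 to 23.3 ± 4.95 CPM (1.82 ± 0.23, adjusted p = 0.000225). NAS2, a nicotianamine synthase, rose by 2.20 ± 0.24 (adjusted p = 0.000102), and F6'H1, the entry enzyme of coumarin synthesis, by 0.62 ± 0.14 (adjusted p = 0.00587). AHA2, the plasma membrane proton pump, fell from 373 to 249 CPM (-0.58 ± 0.13, adjusted p = 0.00571), with near-identical sequence in AT2G18960. NAS1 (0.38), ABCG37 (0.29), IREG2 (0.59), IRT2 (0.15), MTP3 (0.07) and BGLU42 (0.05 on the log2 scale) did not pass. Leaving out wild-type replicate 1 brought ABCG37 (0.47, adjusted p = 0.00228) and NAS1 (0.53, 0.00829) past the threshold, and leaving out labelled mutant replicate 2 did so for NAS1 (0.48, 0.0251) and IREG2 (0.75, 0.0405).

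Of 11 PYE targets and redistribution genes, 10 rose, beside 26.3% of all tested genes, and none fell by edgeR. No gene of the list was lower at an unadjusted p under 0.05 in edgeR, and DESeq2 called 0 lower. The median log2 fold change was 0.87. Because the list was chosen with earlier results of these data known, these counts describe the choice. NAS4, a nicotianamine synthase and a target that PYE represses, rose from 5.58 to 20.7 CPM (1.89 ± 0.22, adjusted p = 0.000148). The other PYE targets FRO3, a mitochondrial ferric reductase, and ZIF1, a vacuolar nicotianamine transporter, rose from 17.5 to 47.8 CPM (1.45 ± 0.18, adjusted p = 0.000190) and from 34.7 to 57.7 CPM (0.73 ± 0.17, adjusted p = 0.00671). PYE itself was higher in the same libraries. The phloem iron transporter OPT3 rose from 71.5 to 148 CPM (1.05 ± 0.15, adjusted p = 0.000466), the vacuolar iron exporter NRAMP4 from 17.5 to 57.4 CPM (1.71 ± 0.11, adjusted p = 5.74e-06), and YSL2 and YSL1, of the metal-nicotianamine transporter family, by 1.12 ± 0.09 and 0.87 ± 0.09 on the log2 scale. NRAMP1 was at -0.04 ± 0.09 (adjusted p = 0.744).

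Of 8 tested iron storage genes, 6 fell and 1 rose by edgeR, beside 26.0% and 26.3% of all tested genes, with a median log2 fold change of -0.67. The storage list too was chosen with earlier results known, and its counts describe the choice. The plastid ferritin genes FER4 and FER3 fell from 11.3 to 4.39 CPM (-1.36 ± 0.09, adjusted p = 8.33e-06) and from 31.6 to 17.3 CPM (-0.87 ± 0.08, adjusted p = 4.41e-05). FER1, the leading ferritin of leaves, fell little, from 30.2 to 25.7 CPM (-0.23 ± 0.08, adjusted p = 0.0442). FER2, the seed ferritin, rose from 0.600 to 2.39 CPM (1.98 ± 0.14, adjusted p = 1.07e-05). FER2 and FER4 each overlap another gene on the same strand, where reads were not counted, and each has a near-identical partner, as does VTL1. NEET, an iron-sulfur protein, fell from 2.40 to 0.455 CPM (-2.41 ± 0.30, adjusted p = 0.000225), and the vacuolar iron transporter-like VTL1 (-0.77 ± 0.21) and VTL5 (-0.58 ± 0.16) fell with adjusted p of 0.0145 and 0.0163. The call of FER1 was lost without wild-type replicate 1 (-0.21, adjusted p = 0.0985) or 3 (-0.19, 0.139) and without labelled mutant replicate 2 (-0.24, 0.0922) or 3 (-0.18, 0.157). VTL1 lost its call without wild-type replicate 3 (-0.63, adjusted p = 0.0626) or labelled mutant replicate 3 (-0.73, 0.0521), and VTL5 without labelled mutant replicate 2 (-0.51, 0.0528).

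**Figure D5:**
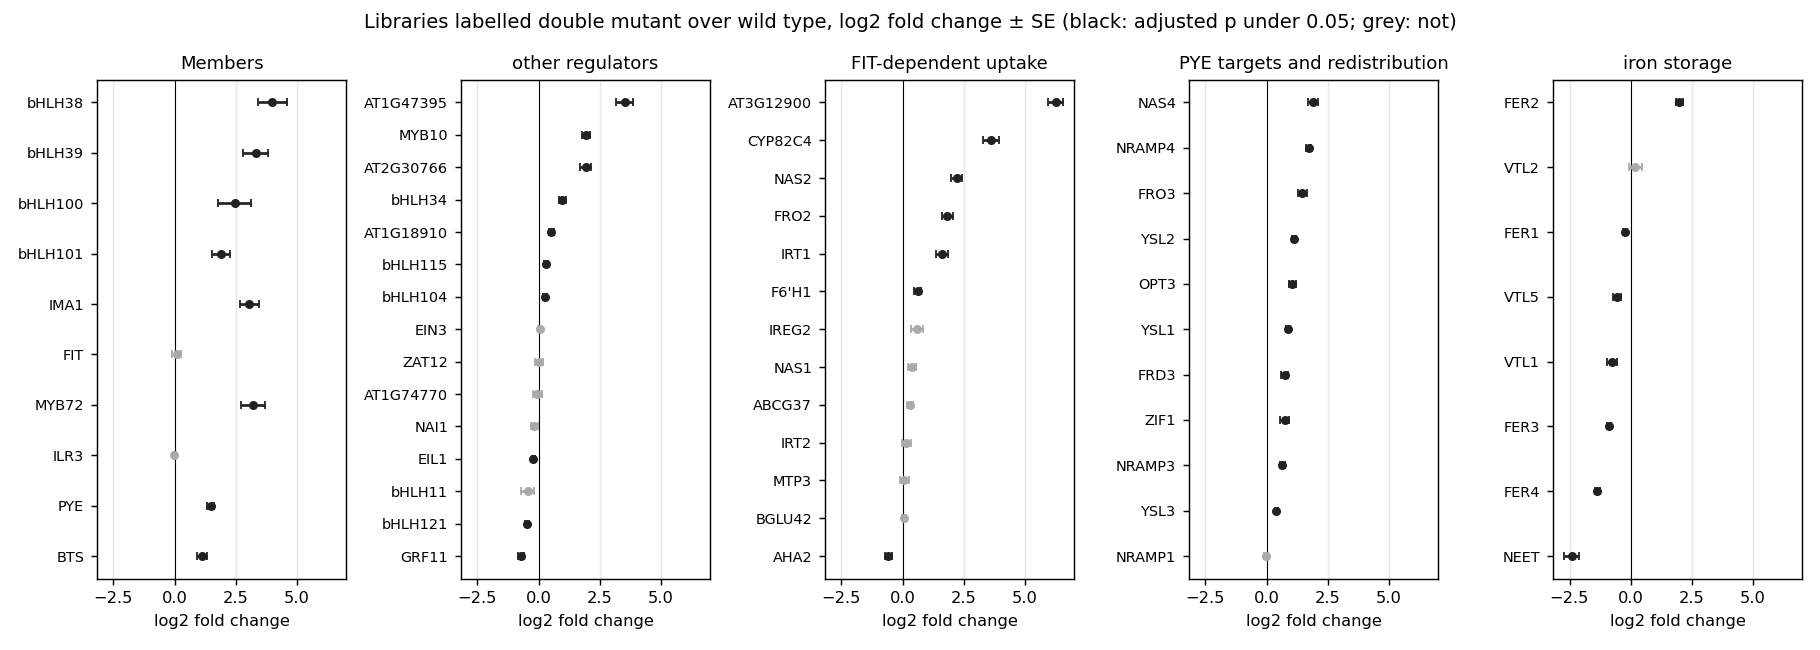
Log2 fold change of the labelled mutant libraries over wild type with its SE from edgeR, for the regulators and the other 4 gene lists. Black marks an adjusted p under 0.05 in edgeR and grey the rest. All these genes were chosen with earlier results known, so the colours describe the choice. The Ib genes, IMA1 and MYB72 lie between 1.90 and 3.99, FIT and ILR3 at 0.08 and -0.02, 10 of 11 PYE targets and redistribution genes lie above 0, and 6 of 8 tested storage genes are lower.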

How the data were processed

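The deposited values are raw counts per gene, 1 table per library, made by the authors with featureCounts 2.0.0 on stranded single-end reads, per the file headers, which also show that reads with several alignments were counted at each. STAR and the TAIR10 genome are named in the submitters' processing notes; neither the version of STAR nor that of the annotation is given in the sources used here. Names, exons and sequences came from RefSeq TAIR10.1, which held all 32548 nuclear loci, 99.95% at identical coordinates. Near-identical sequence meant a shared 50-base stretch or at least 95% identity over 50 bases (BLAST+ 2.17.0).

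All genes were fitted with edgeR 4.0.16 (R 4.3.3; filterByExpr, TMM, quasi-likelihood, 2-sided test, Benjamini-Hochberg over 21805 genes, threshold 0.05), which was also tested on simulated data. SE is the log2 fold change over the square root of F. DESeq2 1.42.0, other scalings, no filter, a replicate block and leaving out each library were alternatives. Nothing in the labels says that libraries came from separate plants or cultures, and the design text speaks of 2 biological replicates where titles number 3, so p-values measure the spread between libraries, which may be technical. Depth covers counting error only, which is largest for genes with few counts, such as MYB72 and AT3G12900 in wild type.

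The regulators and gene lists were chosen with earlier results of these data known. Named genes were all regulators, the other-regulator list, up to 6 called members of each further list by smallest adjusted p with IRT1, FRO2, NAS4, FRO3, ZIF1, FER1 and OPT3 always, both targeted genes and the 5 genes nearest each profile. Neighbours, and further members whose values are given, were added after their values were seen. Coding sequences were compared in place of the planned proteins.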

Additional observations from a re-analysis of the deposited data

How the results depend on the processing

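As a description of values that the choice of genes had used, the log2 fold changes over the 12 alternatives ran from 3.68 to 5.36 for bHLH38, 2.99 to 4.35 for bHLH39, 2.00 to 4.35 for bHLH100, 1.61 to 2.62 for bHLH101, 2.69 to 3.94 for IMA1, 2.78 to 4.08 for MYB72, 1.35 to 1.56 for PYE and 0.98 to 1.49 for BTS. The upper ends, except that of MYB72, came from leaving out wild-type replicate 2 and labelled mutant replicate 1 together, an alternative chosen after seeing the data. Low counts limit MYB72, and AT3G12900 among the uptake genes.

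Without a filter on low counts, 5 other regulators were called lower in place of 3. Leaving out 1 library gave 2 to 4 root markers called higher (4 with all libraries; 2 without wild-type replicate 2 or 3) and 2 to 7 called lower (6 with all; 3 without wild-type replicate 3 or labelled mutant replicate 2, and 2 without labelled mutant replicate 3). Of the shoot markers, 2 were called higher and 2 lower with all libraries, and 1 to 2 in each direction with 1 library left out. They were 1 and 1 without wild-type replicate 2 and labelled mutant replicate 1 together. Some of the genes that had not passed changed sign between alternatives. Their log2 fold changes ran from -0.086 to 0.33 for FIT, from -0.072 to 0.010 for ILR3, from -0.25 to 0.097 for AT1G74770, from -0.12 to 0.089 for ZAT12, from -0.092 to 0.26 for IRT2, from -0.082 to 0.21 for MTP3, from -0.13 to 0.037 for NRAMP1 and from -0.031 to 0.079 for AT3G57000. The opposite sign appeared for each when 1 library was left out, and for FIT (-0.019), ZAT12 (-0.0027), IRT2 (-0.092), MTP3 (-0.064) and NRAMP1 (0.037) also when both named libraries were. AT1G18910 (adjusted p = 0.0520) and AT1G56165 (adjusted p = 0.0834) lost their call without both. EDA7 also lost its call in DESeq2 (adjusted p = 0.0544), and NAS1 passed in DESeq2 (adjusted p = 0.0394) and without the filter (0.0389). The causes were not tested.

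Whether replicate numbers pair the libraries was not settled. Deviations of same-numbered libraries correlated at 0.19, 0.07 and -0.0016 across genes. The value of 0.19, for replicate 1, was the highest between any wild-type and labelled mutant library. Wild-type replicate 2 and 3 did not correlate best with their own number. Deviations within a genotype cancel out, which ties these correlations to each other, so they cannot exclude pairing. In the fit with a replicate block, the SE went from 0.60 to 0.31 for bHLH38 and from 0.13 to 0.15 for PYE. With a replicate block, 11373 genes were called in place of 11421, 1 shoot marker was called lower in place of 2, and ABCG37 (0.30, adjusted p = 0.0134) and NAS1 (0.38, adjusted p = 0.00240) passed.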
